A study of Homo sapiens with 12 samples.

Results

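The stress genes followed here in HCT116 cells handle reactive oxygen, iron or polyamines: TP53I3, FDXR, SAT1, GPX1, GPX4, TXNIP, TXNRD1, NQO1, HMOX1 and SRXN1. They were chosen by gene name, with TP53I3, FDXR and SAT1, which are linked to p53, set against targets of the transcription factor NRF2 and glutathione peroxidases. Of the 10 genes, 9 were listed in all 4 deposited tables, out of 23195 genes in the Nutlin-3a tables and 19393 in all 4, and the expression of TXNIP was not analysed here. HCT116 is an established human colorectal carcinoma line with intact p53. The 4 groups were siControl with DMSO, siControl with Nutlin-3a, siRFX7 with DMSO and siRFX7 with Nutlin-3a, with 3 libraries each of polyA RNA and treatment for 24 h. Nutlin-3a was used at 10 µM, DMSO was its solvent, and every group carried an siRNA, so no group shows untransfected cells. All libraries came from 1 cell line, and the labels used here do not give the siRNA sequences or say whether replicates were separate cultures. The p-values then measure the spread between these libraries, which may be technical.

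Nutlin-3a blocks the binding of MDM2 to p53, so that p53 accumulates and activates its target genes. Some p53 targets produce or clear reactive oxygen, and others move iron or break down polyamines. NRF2 is a separate transcription factor of oxidative stress. Its inhibitor KEAP1 holds it in the cytoplasm until electrophiles or peroxides modify KEAP1, and it then turns on genes through antioxidant response elements. RFX7 is a winged-helix transcription factor that binds X-box motifs and has been placed downstream of p53.

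The tables hold statistics per group, so no value per library can be shown, and the text gives recovered group means of normalized counts with their standard errors (SE). A gene was called changed where the authors' DESeq2 adjusted p was below 0.05. Recovered depth was, on average, 26640576 to 27273497 counts per library by group, and the depth of single libraries is unknown. In bulk RNA, fewer cells with a message and less message per cell cannot be told apart. RFX7 had a recovered mean of 944 normalized counts in siControl DMSO and 185 in siRFX7 DMSO, and its log2 fold change was -2.35 per the authors' deposited table. With Nutlin-3a its means were 1332 under siControl and 302 under siRFX7, a log2 fold change of -2.14 per the authors' deposited table. The p53 targets MDM2 and CDKN1A rose with Nutlin-3a by 3.99 and 4.46 on the log2 scale in siControl per the authors' deposited table. With siRFX7 in DMSO both were called higher, by 0.49 and 1.29, per the authors' deposited table. In Nutlin-3a MDM2 was lower at -0.21 and CDKN1A higher by 0.35 with siRFX7, both called per the authors' deposited table. The MDM2 call there was lost with a t distribution of 8 degrees of freedom (adjusted p 0.0561). Of 9 colon epithelial markers, 7 were listed, with summed means of 115063 to 268845 normalized counts by group. VIL1, a brush-border marker, had a mean below 10 normalized counts, and CDX1 and CEACAM5 were not analysed here. Of 5 leukocyte markers 3 were listed, and the 2 with recovered group means, CD79A and LYZ, summed to at most 9.85, while CD14 had a mean of 2.05. The 1 erythroid marker listed of 4 had 2.72 to 15.6. Of 4 fibroblast markers 3 were listed: COL1A1 had recovered group means of 349 to 515, and COL1A2 and DCN, with no group means recovered, had means of 1.42 and 1.15 over all libraries. The 1 of 3 endothelial markers listed, VWF, had a mean of 13.5.

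The 9 genes differed in their responses. With Nutlin-3a, 5 rose in each siRNA background (TP53I3, FDXR, SAT1, GPX1 and HMOX1), 2 fell (GPX4 and TXNRD1) and 2 were not called (NQO1 and SRXN1), per the authors' deposited tables. Over all genes listed, 43.2% were called in siControl, 22% higher and 21.2% lower, and 41.4% in siRFX7, 21.7% higher and 19.7% lower. Here and below, shares of all genes include genes of low count, down to a mean of 0.9975 normalized counts for Nutlin-3a. They were not matched for expression level. With siRFX7 in DMSO, 3 of the 9 were higher (TP53I3, FDXR and GPX1), 4 were lower (TXNRD1, NQO1, HMOX1 and SRXN1) and 2 were not called (SAT1 and GPX4), where 29% of all genes were called, 13.5% higher and 15.5% lower. With siRFX7 in Nutlin-3a, GPX1 alone was higher and SAT1, GPX4, TXNRD1 and NQO1 were lower, where 28.6% of all genes were called, 15% higher and 13.6% lower. The interaction, the Nutlin-3a log2 fold change under siRFX7 minus that under siControl, was called by a z test for TP53I3 and FDXR, both below 0. Among all genes it was called for 6.2%, 3.28% above 0 and 2.92% below. The median log2 fold change of the 9 genes was 0.78 and 0.86 for Nutlin-3a and -0.24 and -0.20 for siRFX7, beside 0.02, -0.02, -0.00 and 0.00 over all genes. The 2 Nutlin-3a comparisons share no library, but each shares a group with each siRFX7 comparison.

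**Figure D1:**
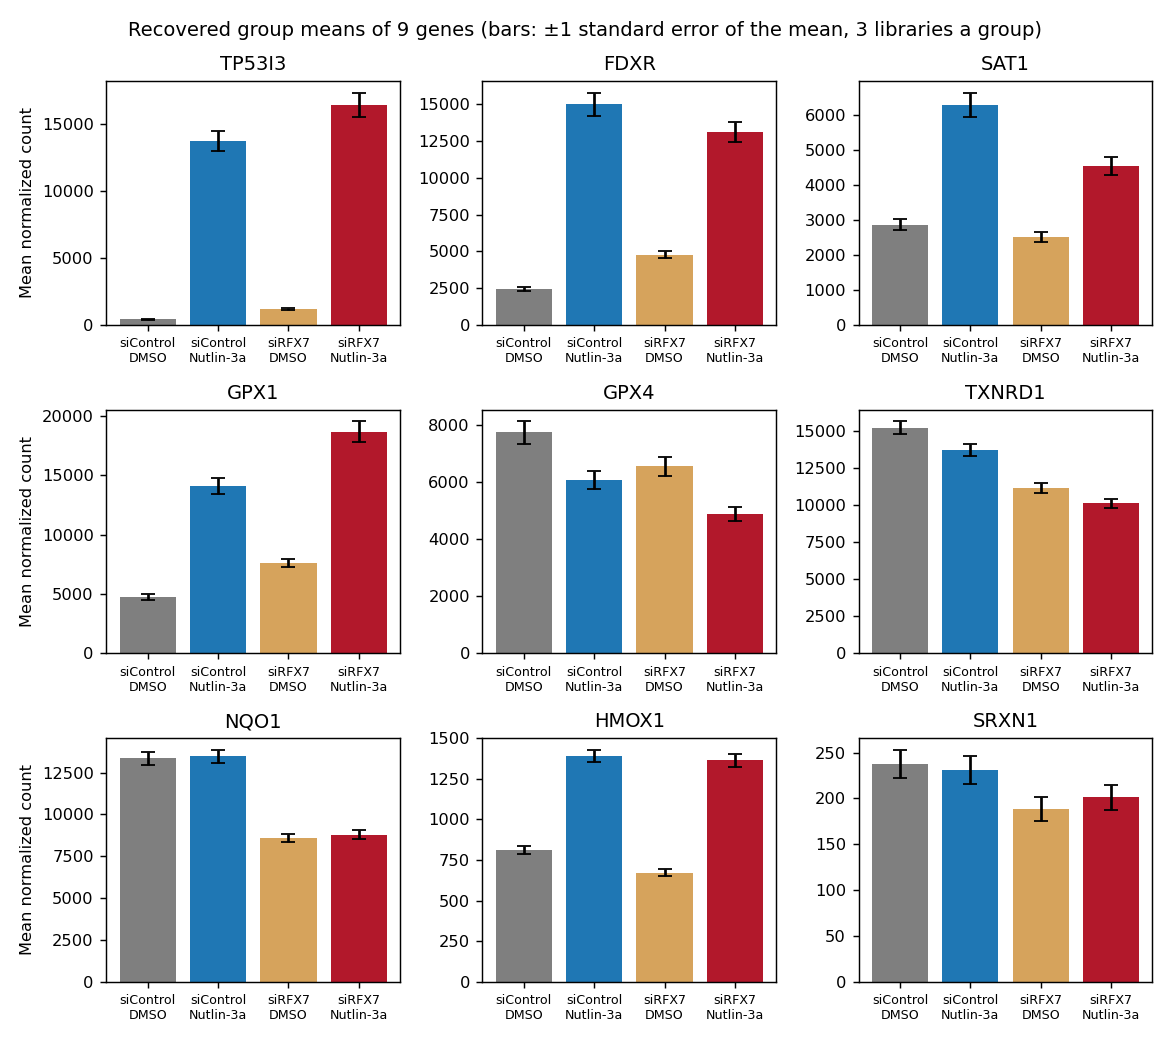
Recovered mean normalized count (linear vertical axis from 0, own scale per gene) of 9 genes in the 4 groups; bars give the mean and lines 1 standard error on each side, 3 libraries a group. TP53I3 goes from 400 in siControl DMSO to 13730 with Nutlin-3a, while NQO1 is at 13345 and 13472 and differs by siRNA instead.

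TP53I3 encodes a quinone oxidoreductase that p53 induces through a repeat in its gene, and it had the steepest response of the 9. The gene (ENSG00000115129) lies on chromosome 2 from 24077433 to 24085861 on the minus strand of GRCh38. Its recovered means were 400 ± 25.2 normalized counts (SE, n = 3) in siControl DMSO and 13730 ± 771 in siControl Nutlin-3a. Under siRFX7 they were 1194 ± 69.6 in DMSO and 16422 ± 922 in Nutlin-3a. The low group was siControl DMSO, siRFX7 DMSO stood about 3 times higher, and both Nutlin-3a groups were far above either. The Nutlin-3a log2 fold change per the authors' deposited tables was 5.10 (SE 0.12, DESeq2 adjusted p deposited as 0) in siControl, a 34.3-fold rise. In siRFX7 it was 3.78 per the authors' deposited table (SE 0.12, DESeq2 adjusted p 4.18e-228), a 13.8-fold rise. The siRFX7 effect in DMSO was 1.58 (SE 0.12, DESeq2 adjusted p 6.41e-35) per the authors' deposited table. In Nutlin-3a it was 0.26, with a DESeq2 adjusted p of 0.0760 per the authors' deposited table, and scaling the groups to equal total counts brought this to 0.0449 by a z test. The interaction was -1.32 (SE 0.17, z test adjusted p 1.34e-12), and the fold rise was the smaller in siRFX7, where the DMSO level was the higher.

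FDXR (ENSG00000161513) encodes ferredoxin reductase, the mitochondrial enzyme that passes electrons from NADPH to ferredoxins for iron-sulfur cluster and steroid synthesis. It lies on chromosome 17 from 74862497 to 74873031 on the minus strand. Its means were 2420 ± 130 normalized counts (SE, n = 3) with DMSO and 15012 ± 789 with Nutlin-3a in siControl cells, and 4766 ± 253 and 13104 ± 689 in the same order in siRFX7 cells. As with TP53I3, siRFX7 DMSO stood above siControl DMSO, and the difference between the 2 Nutlin-3a groups was not called. The Nutlin-3a log2 fold change per the authors' deposited tables was 2.63 in siControl (SE 0.11, DESeq2 adjusted p 1.34e-128) and 1.46 in siRFX7 (SE 0.11, DESeq2 adjusted p 1.88e-40). The siRFX7 effect per the authors' deposited tables was 0.98 in DMSO (DESeq2 adjusted p 1.63e-17) and -0.20 in Nutlin-3a (SE 0.11, DESeq2 adjusted p 0.170). The interaction was -1.17 (SE 0.15, z test adjusted p 3.61e-12).

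SAT1 (ENSG00000130066) encodes spermidine/spermine N1-acetyltransferase, which acetylates polyamines so that they are oxidised or exported. It lies on chromosome X from 23783173 to 23786226 on the plus strand. Its means were 2866 ± 163 normalized counts (SE, n = 3) with DMSO and 6287 ± 355 with Nutlin-3a in siControl cells, and 2499 ± 143 and 4542 ± 257 in the same order in siRFX7 cells. SAT1 rose with Nutlin-3a but, unlike TP53I3 and FDXR, was called higher with siRFX7 in neither treatment. Its Nutlin-3a log2 fold change per the authors' deposited tables was 1.13 in siControl (DESeq2 adjusted p 1.46e-21) and 0.86 in siRFX7 (DESeq2 adjusted p 9.21e-13). With siRFX7 it was -0.47 in Nutlin-3a (SE 0.12, DESeq2 adjusted p 0.000367) and -0.20 in DMSO (SE 0.12, DESeq2 adjusted p 0.210) per the authors' deposited tables. The interaction of -0.27 (SE 0.16, z test adjusted p 0.444) was not called.

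**Figure D2:**
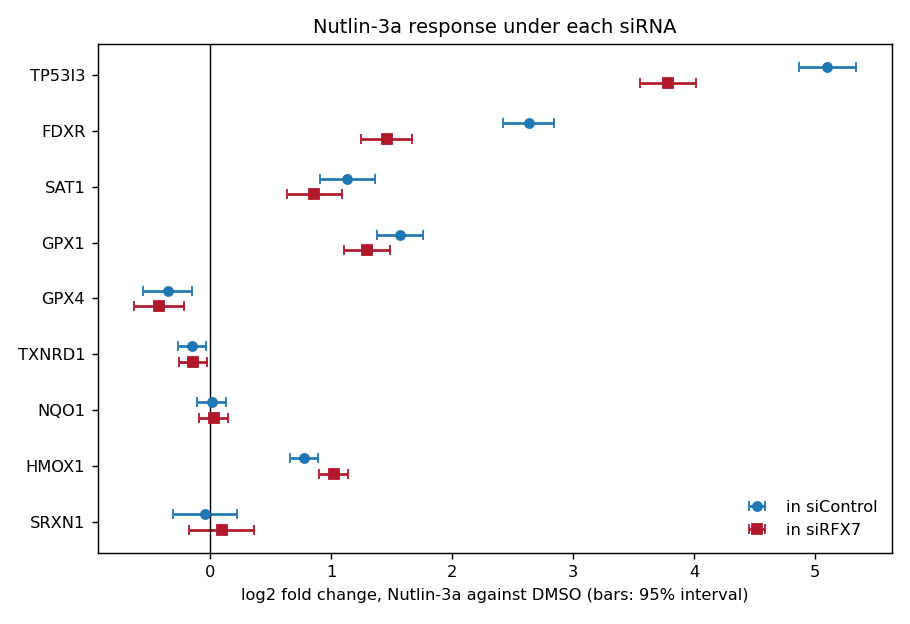
Log2 fold change of 9 genes with Nutlin-3a against DMSO (horizontal axis) in siControl (circles) and siRFX7 (squares), with 95% intervals from the authors' standard errors. TP53I3 and FDXR lie further right in siControl, at 5.10 and 2.63, than in siRFX7, at 3.78 and 1.46, and the markers of NQO1 and SRXN1 span 0.

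GPX1, GPX4 and TXNRD1 encode selenoproteins, whose catalytic selenocysteine is read from a TGA codon that elsewhere stops translation. GPX1 reduces hydrogen peroxide with glutathione, GPX4 reduces lipid peroxides in membranes and guards against ferroptosis, and TXNRD1 reduces thioredoxin in the cytosol. The windows of 30 bases around that codon are shown because the 3 genes share this feature and differed in direction. They were read 5′ to 3′ from the GENCODE 29 transcripts (GRCh38), with the selenocysteine TGA in capitals:
GPX1, codon 49 of 204: atcgagaatgtggcgtccctcTGAggcacc
GPX4, codon 73 of 198: gtcaccaacgtggcctcccagTGAggcaag
TXNRD1, codon 498 of 500: agcatcctccaggctggctgcTGAggttaa
In GPX1 and GPX4 the codon lies in the first part of the coding sequence, and in TXNRD1 it is the last but one before the stop codon taa. The TGA of GPX1 lies at chr3:49358132-49358134 on the minus strand, that of GPX4 at chr19:1105403-1105405 and that of TXNRD1 at chr12:104348413-104348415, both on the plus strand.

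GPX1 was higher with Nutlin-3a and with siRFX7. Its means were 4737 ± 227 normalized counts (SE, n = 3) with DMSO and 14093 ± 668 with Nutlin-3a in siControl cells, and 7592 ± 361 and 18680 ± 884 in the same order in siRFX7 cells. Each siRFX7 group stood above the siControl group of the same treatment, and GPX1 was the one gene of the 9 for which that difference was called in both treatments in the upward direction. The Nutlin-3a log2 fold change per the authors' deposited tables was 1.57 in siControl (DESeq2 adjusted p 1.49e-57) and 1.30 in siRFX7 (DESeq2 adjusted p 9.75e-40). The siRFX7 effect was 0.68 in DMSO (DESeq2 adjusted p 7.48e-11) and 0.41 in Nutlin-3a (DESeq2 adjusted p 0.000209) per the authors' deposited tables. The interaction was -0.27 (SE 0.14, z test adjusted p 0.298). GPX1 values are uncertain, because its processed pseudogene GPX1P1 on chromosome X, with means of 1060, 3208, 1661 and 4050 normalized counts in the same order of groups, followed it closely and may share its reads. GENCODE 29 types GPX1 (ENSG00000233276, chromosome 3, 49357171 to 49358600, minus strand) as a polymorphic pseudogene.

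GPX4 (ENSG00000167468, chromosome 19 from 1103926 to 1106791 on the plus strand) moved the other way. Its means were 7746 ± 394 normalized counts (SE, n = 3) with DMSO and 6084 ± 311 with Nutlin-3a in siControl cells, and 6561 ± 334 and 4895 ± 251 in the same order in siRFX7 cells. The group with neither treatment was highest and the group with both was lowest. Nutlin-3a lowered it by a log2 fold change of -0.35 in siControl (DESeq2 adjusted p 0.00247) and -0.42 in siRFX7 (DESeq2 adjusted p 0.000196) per the authors' deposited tables. With siRFX7 the value was -0.31 in Nutlin-3a (DESeq2 adjusted p 0.0123) and -0.24 in DMSO (DESeq2 adjusted p 0.0682), per the authors' deposited tables. The interaction was -0.07 (SE 0.15, z test adjusted p 0.904). The call with siRFX7 in Nutlin-3a was lost with a t distribution of 8 degrees of freedom (adjusted p 0.0788).

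TXNRD1 (ENSG00000198431), on chromosome 12 from 104215779 to 104350305 (plus strand), is also an NRF2 target, and it was lower with siRFX7 in both treatments. Its means were 15228 ± 441 normalized counts (SE, n = 3) with DMSO and 13716 ± 398 with Nutlin-3a in siControl cells, and 11173 ± 325 and 10119 ± 295 in the same order in siRFX7 cells. The siRNA separated the groups more than the drug did. The siRFX7 log2 fold change was -0.45 in DMSO (SE 0.06, DESeq2 adjusted p 1.61e-12) and -0.44 in Nutlin-3a (SE 0.06, DESeq2 adjusted p 4.81e-12) per the authors' deposited tables. The Nutlin-3a values were -0.15 in siControl and -0.14 in siRFX7 (DESeq2 adjusted p 0.0268 and 0.0400) per the authors' deposited tables. Both of these Nutlin-3a calls were lost with a t distribution of 8 degrees of freedom (adjusted p 0.0851 and 0.106).

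NQO1 (ENSG00000181019) encodes a quinone reductase that is a standard readout of NRF2 activity, and it differed by siRNA, with no call for the drug. It lies on chromosome 16 from 69706996 to 69726951 on the minus strand. Its means were 13345 ± 397 normalized counts (SE, n = 3) with DMSO and 13472 ± 401 with Nutlin-3a in siControl cells, and 8593 ± 257 and 8774 ± 263 in the same order in siRFX7 cells. The siRFX7 log2 fold change was -0.64 in DMSO (SE 0.06, DESeq2 adjusted p 1.89e-23) and -0.62 in Nutlin-3a (SE 0.06, DESeq2 adjusted p 3.22e-22) per the authors' deposited tables. These were the largest falls with siRFX7 among the 9 genes. The Nutlin-3a log2 fold change was 0.01 in siControl (95% interval -0.11 to 0.13) and 0.03 in siRFX7 (95% interval -0.09 to 0.15) per the authors' deposited tables, a size whose sign turned under other scalings. The interaction was 0.02 (95% interval -0.15 to 0.19, z test adjusted p 0.971). In GENCODE 29, 17.7% of the exonic bases of NQO1 overlap the antisense gene AC092115.2, which had a mean of 2.72 normalized counts.

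HMOX1 (ENSG00000100292) encodes haem oxygenase 1, which cleaves haem to biliverdin, carbon monoxide and iron, and it lies on chromosome 22 from 35380361 to 35394214 on the plus strand. Its means were 812 ± 25.1 normalized counts (SE, n = 3) with DMSO and 1390 ± 39.0 with Nutlin-3a in siControl cells, and 670 ± 21.4 and 1362 ± 38.3 in the same order in siRFX7 cells. Alone among the NRF2 targets of the 9, it rose with Nutlin-3a. The rise was 0.78 in siControl (DESeq2 adjusted p 1.14e-36) and 1.02 in siRFX7 (DESeq2 adjusted p 4.70e-61) on the log2 scale per the authors' deposited tables. With siRFX7 it was lower in DMSO, at -0.28 (DESeq2 adjusted p 0.000123), and not called in Nutlin-3a, at -0.03 (DESeq2 adjusted p 0.766), per the authors' deposited tables. The interaction of 0.25 (SE 0.09) missed the threshold with a z test adjusted p of 0.0584, and passed it at 0.0435 where genes with a mean under 10 normalized counts were left out.

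SRXN1 (ENSG00000271303) encodes sulfiredoxin, which repairs overoxidised peroxiredoxins, and it was the least abundant of the 9. It lies on chromosome 20 from 646615 to 653370 on the minus strand. Its means were 238 ± 15.7 normalized counts (SE, n = 3) with DMSO and 231 ± 15.4 with Nutlin-3a in siControl cells, and 188 ± 12.8 and 201 ± 13.7 in the same order in siRFX7 cells. The Nutlin-3a log2 fold change was -0.04 in siControl (95% interval -0.30 to 0.23) and 0.10 in siRFX7 (95% interval -0.18 to 0.37) per the authors' deposited tables, neither called. The siRFX7 value of -0.34 in DMSO had a DESeq2 adjusted p of 0.0489 per the authors' deposited table, which rose to 0.0848 by a z test with median-centred fold changes. In Nutlin-3a it was -0.20 (DESeq2 adjusted p 0.296) per the authors' deposited table. SRXN1 is uncertain, since 85.0% of its exonic bases (2292 bases) are shared on the same strand with AL121758.1, and how reads there were assigned is not given in the sources used here.

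**Figure D3:**
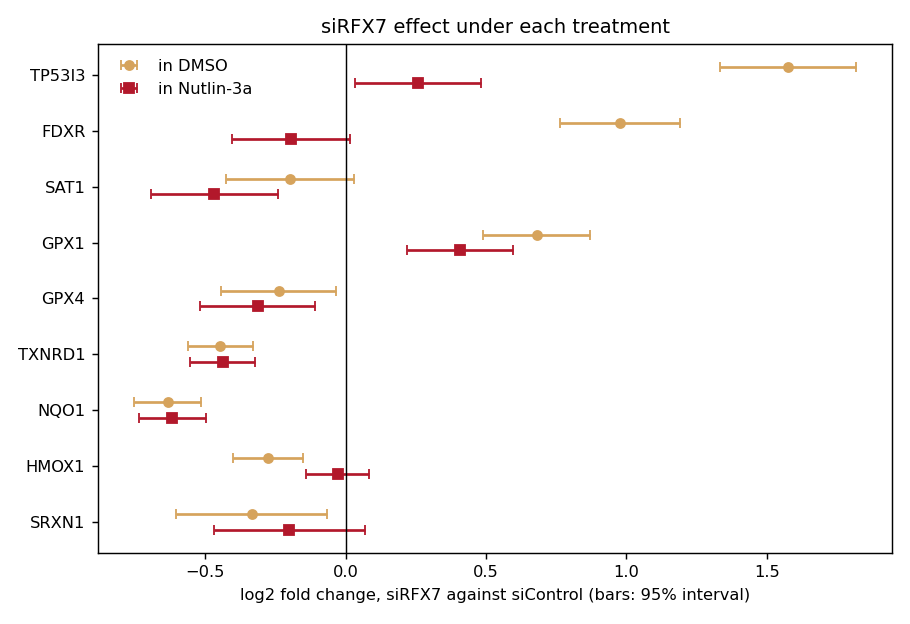
Log2 fold change of 9 genes with siRFX7 against siControl (horizontal axis) in DMSO (circles) and Nutlin-3a (squares), with 95% intervals from the authors' standard errors. TP53I3 and FDXR move left from DMSO, at 1.58 and 0.98, to Nutlin-3a, at 0.26 and -0.20, while TXNRD1 and NQO1 stay left of 0 at nearly the same place.

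Levels can be compared between genes only per length, and are given as mean normalized counts per kilobase of exonic sequence. In siControl DMSO the order was NQO1 at 4101, GPX4 at 3837, GPX1 at 3312, TXNRD1 at 2270, SAT1 at 1147, FDXR at 672, HMOX1 at 338, TP53I3 at 173 and SRXN1 at 88.1. NQO1 and GPX4 differed by 1.15 standard errors of their difference, GPX4 and GPX1 by 2.08, and every later pair of neighbours by 6.07 or more. These errors hold the spread of counts only. The length is the union of all annotated exons, which for GPX1 covers the whole gene span, and may differ from that of the transcripts expressed. The order between genes is therefore less certain than these ratios show. In siControl Nutlin-3a GPX1 was first at 9855 and TP53I3 second at 5939, and FDXR at 4171 and NQO1 at 4140 differed by 0.123 standard errors. In siRFX7 Nutlin-3a the order began with GPX1 at 13063, TP53I3 at 7103 and FDXR at 3641, ahead of NQO1 at 2696 and GPX4 at 2425, which differed by 1.84 standard errors. TP53I3 thus stood near the bottom of the order in siControl DMSO and near its top with Nutlin-3a. The spread between libraries beyond counting error was not alike among the 9 genes. The recovered dispersion corresponded to a coefficient of variation of 8.16% to 9.70% for TP53I3, FDXR, SAT1, GPX1, GPX4 and SRXN1, and of 4.04% to 5.08% for HMOX1, TXNRD1 and NQO1. The median was 5.21% over 6184 genes with a mean of at least 1000 normalized counts.

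Promoter windows, from 250 bases before to 50 after each RefSeq start site (GRCh38.p14), were read for 9 of the 10 genes, HMOX1 having no entry, in 14 entries. Motifs were searched on both strands. The p53 decamer, the unit from which p53 response elements are built, matched in FDXR and GPX1, beside 6.63% of 35116 promoters. It did not match in TP53I3 or SAT1, which were also higher with Nutlin-3a. These shares are of promoter entries, so a gene with several entries had more chances of a match. TGACNNNGC, the core of the antioxidant response element, matched in TXNRD1 and TP53I3, beside 13.3%. GTTGCC, a core of the X-box, matched in TXNIP, GPX1 and TXNRD1, beside 12.2%, and CACGTG in GPX1, beside 7.26%. TGACTCA matched in none, beside 4.95%. None of these matches overlapped another. A match is shown for genes called in the comparisons above, FDXR and GPX1 with Nutlin-3a and GPX1 and TXNRD1 with siRFX7, 5′ to 3′ on the gene's strand with the match in capitals:
FDXR, p53 decamer, chr17:74872986-74873015: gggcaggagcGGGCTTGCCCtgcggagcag
GPX1, p53 decamer, chr3:49358511-49358540: gggccagaccAGACATGCCTgctgctcctt
TXNRD1, antioxidant core, chr12:104215670-104215699: acacgggctaTGACTTCGCtgttgtcaccg
TXNRD1, antioxidant core, reverse strand, chr12:104215761-104215790: gcgtccttcgGCTCCGTCAgttcccacagg
GPX1, X-box core, chr3:49358530-49358559: cgctgccgcctgGTTGCCtgggccagacca
Counted from the start site, the FDXR decamer spans positions -11 to -2 and the GPX1 decamer -177 to -168. The matches shown are a selection. Left out were the antioxidant core of TP53I3, at positions 29 to 37, and the CACGTG of GPX1. The other promoter entry of TXNRD1 held a further antioxidant core and an X-box core, also left out. These are matches of letters only, and no binding was measured.

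Genes whose 4 group means ran most like each of the 9 were ranked by the Euclidean distance of centred log2 means over the 4 groups, among 13722 genes with a mean of at least 50 normalized counts. The closest to TP53I3 were PLA2G4D (distance 0.412), CDKN1A (0.494), the cell cycle inhibitor, and PTAFR (0.562), the largest distances among the 9. HIST1H2BD, a histone gene, was nearest to FDXR at 0.0933, with a Nutlin-3a log2 fold change of 2.62 in siControl and 1.58 in siRFX7 per the authors' deposited tables. GPX1 ran with GPX1P1 (0.0551) and then with FUCA1 (0.0924), a lysosomal fucosidase gene that p53 induces. SRXN1 had UFL1 at 0.0180 and PIR, also known as an NRF2 target, at 0.0203. NQO1 was followed by ARHGAP17 at 0.0771, and HMOX1 by TRIM26 at 0.0312. Near LYPLA2 (0.0928), the nearest gene to SAT1 was the LYPLA2 pseudogene LYPLA2P1 (0.0856), and these 2 may share reads. With 4 groups, likeness rests on 4 points that share all libraries.

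Most other redox and metabolism genes linked to p53 rose with Nutlin-3a, as TP53I3 and FDXR did. They were chosen for that link and with earlier results of these data known, so the rise follows in part from the choice. Of 15 listed of 16, 13 were higher and 1, SOD2 (mitochondrial superoxide dismutase), was lower in each siRNA background per the authors' deposited tables, with a median log2 fold change of 1.55 in siControl and 1.43 in siRFX7. CYP4F3, a leukotriene hydroxylase gene, rose by 3.90 in siControl and 3.20 in siRFX7, and TP53INP1, an antioxidant stress protein gene, by 3.68 and 2.56, per the authors' deposited tables. With siRFX7 in DMSO 9 of the 15 were higher and 2 lower (median 0.58), and in Nutlin-3a 6 were higher and 1 lower (median 0.17). These calls were 73.3% and 46.7% of the list, beside 29% and 28.6% of all genes. For this and the following lists, a share above that of all genes may reflect higher counts, and this was not tested. For Nutlin-3a 93.3% were called in each background, beside 43.2% and 41.4%. SESN1, which encodes sestrin 1, was higher with siRFX7 by 1.33 in DMSO and by 0.54 with Nutlin-3a, and RRM2B, a ribonucleotide reductase subunit gene, by 0.92 and 0.38, per the authors' deposited tables. The falls in DMSO were SESN2 (-0.47) and AIFM2 (-0.27), a ferroptosis suppressor, per the authors' deposited table. TP53INP1 turned from 0.62 in DMSO to -0.50 in Nutlin-3a, both called per the authors' deposited tables. TIGAR, which lowers glycolytic flux, was higher by 0.91 and 0.55 per the authors' deposited tables. The interaction was below 0 for 7 of the 15 and above 0 for 2 by the z test, with a median of -0.25. That was 60% of the list, beside 6.2% of all genes. With a t distribution of 8 degrees of freedom 3 were called below 0 and 0 above, the calls of CYP4F3, TIGAR, SESN2 and AIFM2 among those lost, and at an adjusted p below 0.01 4 were below 0 and 2 above.

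NRF2 targets other than the 9 genes did not move as one group. Of 26 listed of 28, Nutlin-3a raised 11 and lowered 5 in siControl (median 0.17), while 14 rose and 2 fell in siRFX7 (median 0.22), per the authors' deposited tables. AKR1B10, an aldo-keto reductase gene, had a Nutlin-3a log2 fold change of 3.97 in both backgrounds per the authors' deposited tables. SLC7A11, the cystine importer gene, was lower at -1.86 in siControl and at -0.49 in siRFX7 per the authors' deposited tables. With siRFX7 in DMSO 3 were higher and 9 lower (median -0.03), and in Nutlin-3a 8 were higher and 6 lower (median 0.11). These calls were 46.2% and 53.8% of the list, beside 29% and 28.6% of all genes. For Nutlin-3a 61.5% were called in each background, beside 43.2% and 41.4%. SLC7A11 was lower with siRFX7 in DMSO, at -1.63, with -0.25 (DESeq2 adjusted p 0.0695) in Nutlin-3a per the authors' deposited tables. OSGIN1 was higher with siRFX7 by 0.36 and 0.43, per the authors' deposited tables. GCLM, a subunit gene of the enzyme that starts glutathione synthesis, had -0.12 in DMSO (DESeq2 adjusted p 0.0699) and rose by 0.34 in Nutlin-3a, per the authors' deposited tables. The list's siRFX7 calls in Nutlin-3a went both ways.

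The NRF2 regulators included lower values with siRFX7. Of 15 listed, 1 was higher and 5 lower in DMSO, and 2 higher and 4 lower in Nutlin-3a, per the authors' deposited tables. That was 40% of the list in each treatment, beside 29% and 28.6% of all genes. For the drug the shares called were 66.7% in siControl and 93.3% in siRFX7, beside 43.2% and 41.4%. NFE2L2, which encodes NRF2, had a siRFX7 log2 fold change of -0.37 (DESeq2 adjusted p 2.16e-11) in DMSO and -0.13 (DESeq2 adjusted p 0.0342) in Nutlin-3a per the authors' deposited tables. The call in Nutlin-3a was lost with equal total counts (z test adjusted p 0.106) and with a t distribution of 8 degrees of freedom (adjusted p 0.118). MAFF and MAFG, small MAF partners of NRF2, were lower at -0.97 and -0.59 in DMSO, and in Nutlin-3a at -0.79 and -0.42, per the authors' deposited tables. KEAP1, named here for its role and outside the rule for naming genes, had -0.12 (DESeq2 adjusted p 0.108) and -0.07 (DESeq2 adjusted p 0.447) per the authors' deposited tables. With Nutlin-3a, 5 of the 15 rose and 5 fell in siControl, while 10 rose and 4 fell in siRFX7, per the authors' deposited tables. Whether these levels bear on NQO1 and TXNRD1 was not tested.

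**Figure D4:**
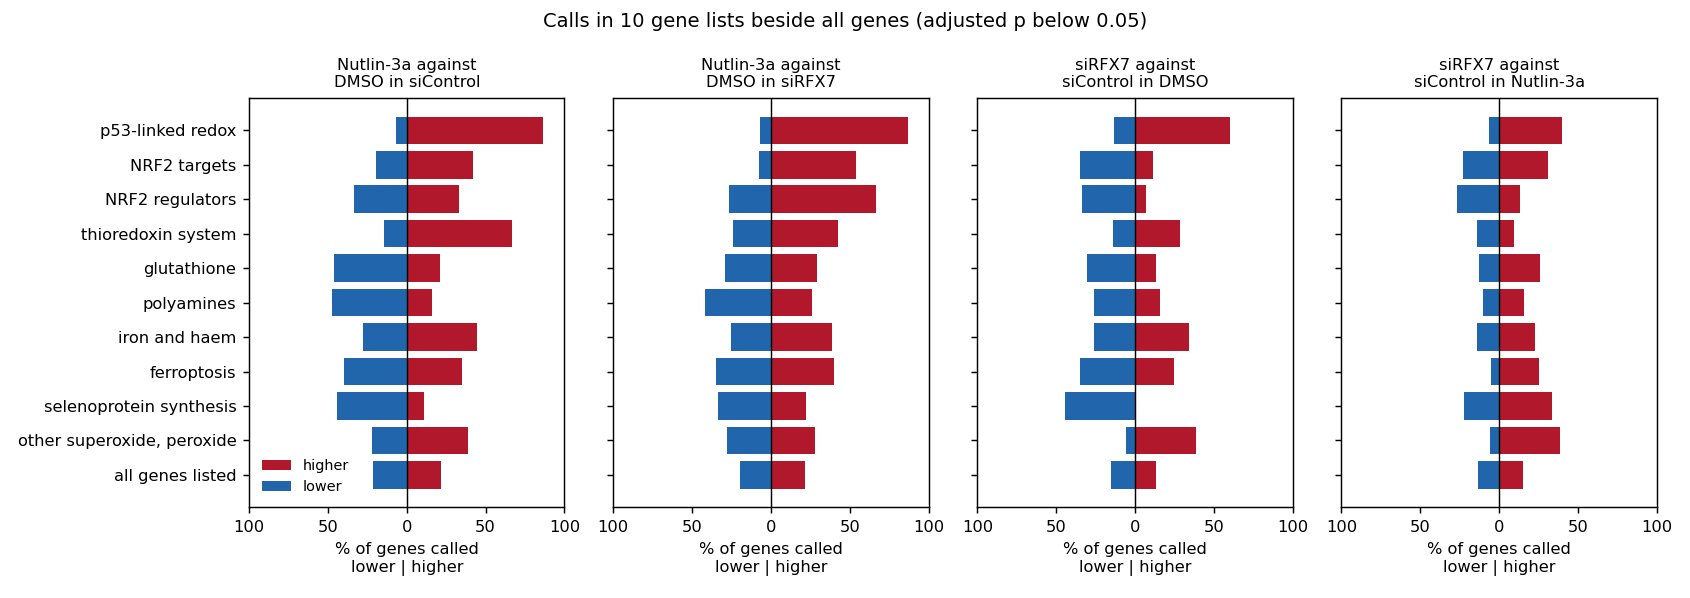
Share of listed genes called higher (right, red) or lower (left, blue) in percent for 10 gene lists and for all genes, one panel per comparison. The p53-linked redox list leans right in the Nutlin-3a panels, with 13 of 15 genes higher, and the polyamine list leans left in siControl, with 9 of 19 lower.

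Of 19 polyamine genes listed of 20, Nutlin-3a raised 3 and lowered 9 in siControl (median -0.14), while 5 rose and 8 fell in siRFX7 (median -0.05), per the authors' deposited tables. The shares called were 63.2% and 68.4%, beside 43.2% and 41.4% of all genes. For siRFX7 in DMSO 42.1% were called, beside 29%. ODC1, the entry enzyme of polyamine synthesis, was lower at -0.96 and -0.93 in siControl and siRFX7 per the authors' deposited tables. PAOX, which oxidises the acetylated polyamines that SAT1 makes, rose by 1.04 and 0.82, and SAT2, a relative of SAT1, by 0.81 and 0.53, per the authors' deposited tables. ARG2, an arginase gene, fell by 0.93 in siControl per the authors' deposited table, with -0.04 (DESeq2 adjusted p 0.849) in siRFX7. With siRFX7, 3 were higher and 5 lower in DMSO and 3 higher and 2 lower in Nutlin-3a, where the 26.3% called lay near the 28.6% of all genes. ODC1 had -0.01 and 0.02 with siRFX7 per the authors' deposited tables, and neither was called (DESeq2 adjusted p 0.949 and 0.899).

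Of the iron, haem and iron-sulfur genes, 36 of 39 were listed in the Nutlin-3a tables, and Nutlin-3a raised 16 and lowered 10 in siControl, while 14 rose and 9 fell in siRFX7, per the authors' deposited tables. ISCU, the scaffold on which iron-sulfur clusters form with electrons that FDXR supplies, rose by 1.002 and 0.98, and STEAP3, an endosomal ferrireductase gene, by 0.92 and 0.75, per the authors' deposited tables. SLC25A28, a mitochondrial iron importer gene, was lower at -0.80 and -0.67 per the authors' deposited tables. With siRFX7, 12 of 35 were higher and 9 lower in DMSO and 8 were higher and 5 lower in Nutlin-3a. These calls were 60% and 37.1% of the list, beside 29% and 28.6% of all genes. For Nutlin-3a the shares were 72.2% in siControl and 63.9% in siRFX7, beside 43.2% and 41.4%. CYBRD1, a ferric reductase gene, was higher by 0.71 and 0.95, while FTL, the ferritin light chain and an NRF2 target, was lower at -0.41 and -0.33, per the authors' deposited tables. FECH, the last enzyme of haem synthesis, rose with Nutlin-3a by 0.51 in siControl and 1.001 in siRFX7 per the authors' deposited tables, and its interaction was 0.49 (z test adjusted p 3.59e-10).

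In the thioredoxin system and the arrestin domain relatives of TXNIP, Nutlin-3a raised 14 and lowered 3 of 21 genes in siControl, while 9 rose and 5 fell in siRFX7, per the authors' deposited tables. The shares called were 81.0% and 66.7%, beside 43.2% and 41.4% of all genes. ARRDC1, an arrestin domain gene, rose by 1.12 and 1.08, and ARRDC3 was lower at -0.51 and -1.06, per the authors' deposited tables. PRDX4, the peroxiredoxin of the endoplasmic reticulum, was lower at -0.38 and -0.35 per the authors' deposited tables. SESN3, a sestrin gene, rose by 0.58 in siControl and had -1.15 in siRFX7, both called per the authors' deposited tables. The siRFX7 calls of this list were 6 higher and 3 lower in DMSO and 2 higher and 3 lower in Nutlin-3a. These were 42.9% of the list in DMSO, beside 29% of all genes, and 23.8% in Nutlin-3a, below the 28.6% of all genes.

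Glutathione genes, 24 of 29 listed, were higher for 5 and lower for 11 with Nutlin-3a in siControl (median -0.27), and 7 each way in siRFX7 (median -0.10), per the authors' deposited tables. GPX8, a peroxidase of the endoplasmic reticulum, was lower at -1.90 and -1.36 per the authors' deposited tables, a larger fall than that of GPX4. CHAC1, which degrades glutathione, fell by 2.72 in siControl per the authors' deposited table, with -0.23 (DESeq2 adjusted p 0.160) in siRFX7. It was lower with siRFX7 in DMSO, at -2.29, per the authors' deposited table, as was SLC7A11. MGST2, a microsomal glutathione transferase gene, rose by 0.97 and 1.24, and GSTK1, a peroxisomal and mitochondrial one, by 0.70 and 0.31, per the authors' deposited tables. In DMSO 3 of 23 were higher with siRFX7 and 7 lower, and in Nutlin-3a 6 were higher and 3 lower. These calls were 43.5% and 39.1% of the list, beside 29% and 28.6% of all genes. For Nutlin-3a the shares were 66.7% in siControl and 58.3% in siRFX7, beside 43.2% and 41.4%. The interaction was above 0 for 8 of 24 and below 0 for 1 by the z test, and for 5 and 0 with a t distribution of 8 degrees of freedom. By the z test 37.5% of the list was called, beside 6.2% of all genes.

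Among ferroptosis genes other than the 9, 7 of 20 listed rose and 8 fell with Nutlin-3a in siControl, and 8 rose and 7 fell in siRFX7, per the authors' deposited tables. SLC7A11 and CHAC1, counted here, were also counted among the glutathione genes. That was 75% of the list in each background, beside 43.2% and 41.4% of all genes. ALOX5, a lipoxygenase gene, rose by 3.59 and 2.36, and LPCAT3, which loads polyunsaturated fatty acids into phospholipids, by 0.87 and 0.80, per the authors' deposited tables. With siRFX7 5 were higher and 7 lower in DMSO, and 5 higher and 1 lower in Nutlin-3a, where the 30% called lay near the 28.6% of all genes. In DMSO 60% were called, beside 29% of all genes. Of 18 other superoxide and peroxide enzymes listed of 21, 7 rose and 4 fell with Nutlin-3a in siControl, and 5 rose and 5 fell in siRFX7. These calls were 61.1% and 55.6% of that list, beside 43.2% and 41.4% of all genes. DUOX1, a hydrogen peroxide-producing oxidase gene, rose by 2.26 and 2.05, and NOXO1, an organiser of the NOX1 oxidase, was lower at -1.69 and -1.78, per the authors' deposited tables. NQO2, the relative of NQO1, was lower at -0.68 in siControl and at -0.19 in siRFX7 per the authors' deposited tables, where NQO1 was not called. With siRFX7, 7 of the 18 were higher and 1 lower in each treatment, 44.4% beside 29% and 28.6% of all genes. Among them MSRA, which repairs oxidised methionine, was higher by 0.55 with DMSO and by 0.47 with Nutlin-3a, per the authors' deposited tables.

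Of 9 genes of selenoprotein synthesis, none was called higher with siRFX7 in DMSO and 4 were lower, while 3 were higher and 2 lower in Nutlin-3a, per the authors' deposited tables. These calls were 44.4% and 55.6% of the list, beside 29% and 28.6% of all genes. SEPHS2, which makes the selenium donor, was lower with siRFX7 at -0.56 in DMSO and -0.21 in Nutlin-3a per the authors' deposited tables. SECISBP2, which binds selenoprotein messages, was lower in DMSO at -0.33 per the authors' deposited table. Nutlin-3a raised 1 and lowered 4 of the 9 in siControl, while 2 rose and 3 fell in siRFX7. That was 55.6% in each background, beside 43.2% and 41.4% of all genes. SEPHS1 was lower at -0.70 and -0.86, and SCLY, which recycles selenocysteine, at -1.09 and -0.49, per the authors' deposited tables. The call of SCLY in siRFX7 (DESeq2 adjusted p 0.0281) was lost with a t distribution of 8 degrees of freedom (adjusted p 0.0890). Over the selenoprotein genes themselves, a list taken from GENCODE 29 after the data were seen, 5 of 20 listed were higher and 8 lower with Nutlin-3a in siControl, GPX1 among the former and GPX4 and TXNRD1 among the latter. The share called was 65%, beside 43.2% of all genes.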

How the data were processed

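PolyA RNA was sequenced in 12 libraries, and the data are 4 tables of the authors' DESeq2 results, each on 2 groups. The mean normalized count column is, per the file headers, a signal: counts were scaled by size factors and averaged over all libraries. Fold changes and standard errors are deposited on a log2 scale. The deposited statistic is a score, taken here as the Wald statistic, the ratio of fold change to standard error. Each raw or adjusted p-value is the authors' own, per the file headers. Per the submitters' processing notes, tools were bcl2fastq 2.20.0.422, Trimmomatic 0.39, cutadapt 2.10, FastQC 0.11.9, SAMtools 1.10, Picard, featureCounts 1.6.5 and DESeq2 1.20.0, with hg38. The aligner, annotation, strand setting and handling of reads with several matches are not given in the sources used here.

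Read as siRFX7 over siControl, the 4 fold changes of a gene summed around the design to within 1.27e-14 on the log2 scale, and the squared standard errors added as in 1 fit of all groups. Group means, with equal weight per group, and their errors were recovered from these values and the negative binomial formula. No count model was run, since the tables hold statistics. The interaction was a two-sided z test with Benjamini-Hochberg adjustment over 23195 genes, which takes the standard errors as known. The scripts (python 3.11.15, scipy 1.17.1) were tested on simulated data. The simulated standard errors used the true dispersion, so this could not test whether standard errors may be taken as known. Identifiers, coordinates and overlaps come from GENCODE 29. The genes and the 10 lists were chosen with earlier results of these data known. Some genes are in several lists, such as SLC7A11 among NRF2 targets, glutathione genes and ferroptosis genes. Counts of different lists are therefore not independent. Beyond the 9 genes, RFX7, MDM2 and CDKN1A, the rule named, per list and comparison, the 2 largest rises and 2 largest falls among called genes with a mean of at least 50, each then shown in other comparisons too, and the 3 genes most like each of the 9. Not all genes the rule allows are named. Alternatives were an adjusted p below 0.01, a minimum absolute log2 fold change of 0.58, median-centred fold changes, equal summed group means, a mean of at least 10, a t distribution with 8 degrees of freedom, and group means weighted by size factors. A motif was counted in both orientations.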

Additional observations from a re-analysis of the deposited data

Results flagged for a closer look

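The interaction, on the log2 scale and taken as the drug's effect in siRFX7 minus that in siControl, passed the z test (adjusted p below 0.05 over 23195 genes) for these genes named in the text. Some, such as GCLM, were named because their interaction was among the largest called in a list. Other called genes of the lists, such as GCLC and PRODH, are not shown. Among the 9 stress genes it was -1.32 for TP53I3 and -1.17 for FDXR. Of the other p53-linked genes it was -1.12 for TP53INP1, -0.79 for SESN1, -0.70 for CYP4F3, -0.54 for RRM2B, -0.36 for TIGAR, -0.93 for CDKN1A and -0.69 for MDM2, and above 0 for SESN2 at 0.56 and AIFM2 at 0.31. For NRF2 targets it was 1.38 for SLC7A11, 0.46 for GCLM, 0.40 for BLVRB, which encodes biliverdin reductase B, and -0.57 for ABCC2, an export pump gene. For NRF2 regulators it was 0.23 for NFE2L2, 0.33 for NFE2L1 and -0.31 for DPP3. In the thioredoxin list it was -1.73 for SESN3 and -0.55 for ARRDC3. For glutathione genes it was 2.49 for CHAC1, 0.54 for GPX8, 0.46 for GLRX2 and -0.39 for GSTK1.

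The remaining values were 0.90 for ARG2, 0.49 for FECH, -0.62 for PPOX, -1.23 for ALOX5, 0.35 for SEPHS2, 0.26 for SECISBP2, 0.49 for NQO2 and -0.38 for CAT, the catalase gene. Of the genes that ran like the 9, it was -1.04 for HIST1H2BD and 0.30 for TRIM26. CHAC1 and SLC7A11 fell with Nutlin-3a in siControl and were lower with siRFX7 in DMSO. Of the 34 values, 18 were no longer called with a t distribution of 8 degrees of freedom. They were those of CYP4F3, SESN2, TIGAR, AIFM2, ABCC2, BLVRB, NFE2L2, NFE2L1, DPP3, ARRDC3, GSTK1, GLRX2, PPOX, ALOX5, SEPHS2, SECISBP2, CAT and TRIM26.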

How the results depend on the processing

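Of 45 results for the 9 genes, 28 kept their direction and their side of the threshold under all 6 alternatives. Among the 28 were the interactions of TP53I3 and FDXR, and none of the called values turned sign. The stricter adjusted p, the minimum fold change and the t distribution can only remove calls. For results not called, agreement under these alternatives was therefore fixed in advance. Under a minimum absolute log2 fold change of 0.58, 5198 and 4830 genes were called for Nutlin-3a in siControl and siRFX7, 1547 and 1482 for siRFX7 in DMSO and Nutlin-3a, and 544 for the interaction, by construction. With a t distribution of 8 degrees of freedom 3598 and 3347 genes were called for siRFX7 and 274 for the interaction, and at an adjusted p below 0.01 the interaction had 863. Equal total counts moved the siRFX7 calls in DMSO from 2704 higher and 3107 lower to 3391 and 2262, and the interaction from 760 and 677 to 583 and 792; the cause was not tested. Both scalings shifted all genes by at most 0.06 on the log2 scale. The uncalled NQO1 values turned to -0.0052 (median-centred) and -0.010 (equal totals) for Nutlin-3a in siControl, to -0.024 (equal totals) in siRFX7, and to -0.012 and -0.014 for the interaction, and TXNRD1 had interactions of -0.021 and -0.022 under these scalings. The siRFX7 call of SRXN1 in DMSO was lost under all alternatives but the mean filter. Of 240 called results of the other named genes, 120 held under every alternative, and none reversed. Of 600 list counts, 134 moved by over 1.5 times, while list medians and group means moved by less than their spread. Leaving out replicates was not possible, since no values per library were used. No paired analysis was possible because the tables hold statistics per group. The counting depth is known only as a group average.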
